A study of Mus musculus with 20 samples.

Results

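The stress regulators described here are 7 genes: Ddit3, Xbp1, Trib3, Ppp1r15a, Manf, Gadd45b and Hmox1. They were taken as all probe sets, on either of the 2 array types of the study, whose only gene symbol in the platform annotation is one of these 7 names, which gave 8 probe sets of the 13069 that measure genes. Each gene had 1 probe set except Hmox1, which had 2, and 7 of the 8 passed the filter on low values, at least 1 for every gene. The cells were 3T3-L1, a mouse fibroblast line that turns into fat-storing adipocytes after a hormone mixture known as MDI (in standard use isobutylmethylxanthine, dexamethasone and insulin). RNA was taken from preconfluent and confluent cells before induction, at 6, 12 and 24 hours after it, and on days 2, 3, 4, 7 and 28. Each of these 10 time points was 1 sample on each array type (20 arrays, called array A and array B), all of this 1 line. No uninduced sample was taken beside the induced ones, so the hormones and the time in culture cannot be told apart.

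Cells answer misfolded protein in the endoplasmic reticulum, lack of amino acids, heme deficiency or viral RNA by phosphorylating the translation factor eIF2, which lowers protein synthesis in general and favours a few messages such as that of the transcription factor Atf4. This integrated stress response raises the genes Ddit3, Trib3 and Ppp1r15a, while the other arms of the unfolded protein response, through the sensors Ire1 and Atf6, act on Xbp1 and on chaperones. In adipocytes the pathway is of interest because the product of Ddit3, the protein CHOP, pairs with the C/EBP factors that drive fat cell formation, and because maturing fat cells secrete much protein.

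Comparisons were made between 4 stages. Preconfluent and confluent cells form the stage before induction (n = 2), the samples of 6, 12 and 24 hours the early stage (n = 3), those of days 2 and 3 the middle stage (n = 2) and those of days 4, 7 and 28 the late stage (n = 3). Values are the authors' linear intensities, which can lie below 0. For log2 changes and folds, values under a floor of 136 on array A or 156 on array B were set to that floor, and a fold against a stage with samples at the floor is given as "at least". All p-values are limma's, adjusted over the 7582 probe sets tested, and a call is an adjusted p under 0.05. They measure the spread between neighbouring time points, which may be technical or real change with time, since no time point had a replicate. Where all samples of a stage were at the floor, that stage added no spread. This can make SE and p-values too small, as for Ddit3 and, further below, Cebpa, Dnajb9 and Pdia5. Signal was alike across arrays, and the filter limit was passed by 3126 to 3379 probe sets per array of type A and 2947 to 3069 of type B. Markers showed the passage from fibroblast to adipocyte: the summed level of 7 adipocyte markers lay between 1078 and 1456 before induction and between 62650 and 92020 late. In such bulk samples, fewer cells of a type and less RNA per cell cannot be told apart.

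Because 4 of the 7 genes had their highest value in the same sample, the promoters of those for which a sequence was held are shown first, with that of Xbp1, whose values ran differently. RefSeq sequences (build GRCm38.p6, 250 bases before to 50 from the annotated start, 5′ to 3′ on the gene's strand) were matched for 5 of the 7 genes: Ddit3, Xbp1, Trib3, Ppp1r15a and Gadd45b. Ddit3 is at chr10:127290543-127290842 on the plus strand, Trib3 at chr2:152344011-152344310 on the minus strand, Ppp1r15a at chr7:45526219-45526518 on the minus strand and Xbp1 at chr11:5520391-5520690 on the plus strand. Gadd45b lies at chr10:80930091-80932204, Manf at chr9:106888753-106891938 and Hmox1 at chr8:75093618-75100593 in the same build. Capitals mark matches to the motifs searched, on either strand.
Ddit3: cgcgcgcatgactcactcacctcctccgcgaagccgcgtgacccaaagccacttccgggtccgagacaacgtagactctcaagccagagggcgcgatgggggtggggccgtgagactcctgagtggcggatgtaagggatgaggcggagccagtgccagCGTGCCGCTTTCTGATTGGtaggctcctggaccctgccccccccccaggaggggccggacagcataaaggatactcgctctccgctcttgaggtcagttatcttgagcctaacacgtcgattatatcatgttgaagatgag
Trib3: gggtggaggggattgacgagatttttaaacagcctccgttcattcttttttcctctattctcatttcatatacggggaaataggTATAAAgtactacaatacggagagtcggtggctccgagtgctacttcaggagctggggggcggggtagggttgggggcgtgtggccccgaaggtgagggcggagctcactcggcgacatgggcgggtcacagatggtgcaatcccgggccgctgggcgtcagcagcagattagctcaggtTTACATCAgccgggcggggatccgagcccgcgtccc
Ppp1r15a: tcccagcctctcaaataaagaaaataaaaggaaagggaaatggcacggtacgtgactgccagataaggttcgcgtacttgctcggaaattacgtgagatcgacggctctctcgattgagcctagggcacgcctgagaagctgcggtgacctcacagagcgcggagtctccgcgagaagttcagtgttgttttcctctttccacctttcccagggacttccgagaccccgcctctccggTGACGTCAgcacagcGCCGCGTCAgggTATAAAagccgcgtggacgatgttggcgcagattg
Xbp1: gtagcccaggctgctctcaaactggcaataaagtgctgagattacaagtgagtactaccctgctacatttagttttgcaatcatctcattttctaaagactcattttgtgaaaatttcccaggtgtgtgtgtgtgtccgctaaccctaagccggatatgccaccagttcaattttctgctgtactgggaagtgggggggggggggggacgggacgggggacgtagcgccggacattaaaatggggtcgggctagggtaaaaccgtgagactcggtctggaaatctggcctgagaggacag

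The motifs, chosen after these sequences had been seen, were the cyclic AMP response element (TGACGTCA), the C/EBP-ATF composite site bound by Atf4 (TGATGNAA), the endoplasmic reticulum stress element (CCAAT and CCACG with 9 bases between), the same with its next base open too (CCAAT and CACG with 10 bases between), an Xbp1 and Atf6 site (TGACGTGG), the antioxidant response element (TGACNNNGC) and the TATA box (TATAAA). The Ddit3 window held the stress element with the extra open base, on the opposite strand, starting 91 bases before the annotated start, a form found in 0.265% of all 32851 promoter windows of 300 bases. Trib3 held the C/EBP-ATF site on the opposite strand, 14 bases after the start (3.97% of windows), and a TATA box 166 bases before it (13.6%). Ppp1r15a held the cyclic AMP response element 12 bases before the start (1.79%), an antioxidant response element 3 bases after it (12.4%) and a TATA box 15 bases after it. Xbp1 held none of the motifs and Gadd45b held a TATA box only, 46 bases before its start. The strict stress element (0.119% of windows) and the Xbp1 and Atf6 site (0.676%) were in none of the 5 windows. A match is a description of letters, not a binding site.

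Ddit3, the gene of the transcription factor CHOP, was on in confluent cells, lay under the floor through all of the early and middle stages, and came back in late cells at its highest level. Its intensity on array B was 575 in preconfluent and 2540 in confluent cells, -729, -781 and -571 at 6, 12 and 24 hours, -405 and -95 on days 2 and 3, and 3270, 8190 and 2570 on days 4, 7 and 28. Values below 0 are not ordered here as levels of RNA, and say only that the specific probes were no brighter than their controls. The values from 6 hours to day 2 lay below the 10th percentile of array B, so they were unusually low for the array. Why they were so low was not tested, and the folds given here take them as 156. The late samples lay above all 5 early and middle samples, with no overlap. They also lay above both samples from before induction, day 28 only just above confluent cells. Here and for the other genes, the share of all tested probe sets with such a separation was not counted, so it describes the values only. Ddit3 rose from the middle to the late stage at least 26.3-fold (log2 change 4.72 ± 0.63 SE, n = 3 against 2, adjusted p = 0.029).

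This comparison called 22 probe sets (0.29% of those tested), 17 of them higher (0.224%), and Ddit3 was the only 1 of the 7 stress regulators among them. At an unadjusted p under 0.05 there were 3 of the 7, and 917 probe sets in all (12.1%). The call rested on a narrow margin. The log2 change was again 4.72 without 6 hours, 12 hours, 24 hours, day 2 or day 3 and 4.22 without day 7, but the adjusted p in these 6 fits ran from 0.0624 to 0.3. It was 0.148 with no filter and 0.147 with a floor of 300 (log2 change 3.77).

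Before induction the level of Ddit3 differed 4.42-fold between its samples, preconfluent and confluent, and from confluent cells to 6 hours it was at least 16.3-fold lower. From day 3 to day 4 it was at least 21.0-fold higher, where 3.93% of tested probe sets were 2-fold or more higher. For comparison, 6.19% of tested probe sets were 2-fold or more higher in confluent than in preconfluent cells, and 6.52% were 2-fold or more lower at 6 hours than in confluent cells. These are single samples with no replicate check. For the early stage against before induction, the log2 change was -2.95 ± 0.63 SE (at least 7.75-fold, adjusted p = 0.141). That comparison called 27 probe sets in all (0.356%) and none of the 7 regulators, while 2 of the 7, Ddit3 and Hmox1, and 700 probe sets (9.23%) had an unadjusted p under 0.05 in limma. With a floor of 50, Ddit3 was called in it (log2 change -4.60, adjusted p = 0.0285). Late against before induction gave 3.39-fold (1.76 ± 0.63 SE, adjusted p = 0.12), and without the confluent sample the log2 change was 2.83 and called (adjusted p = 0.0346).

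**Figure D1:**
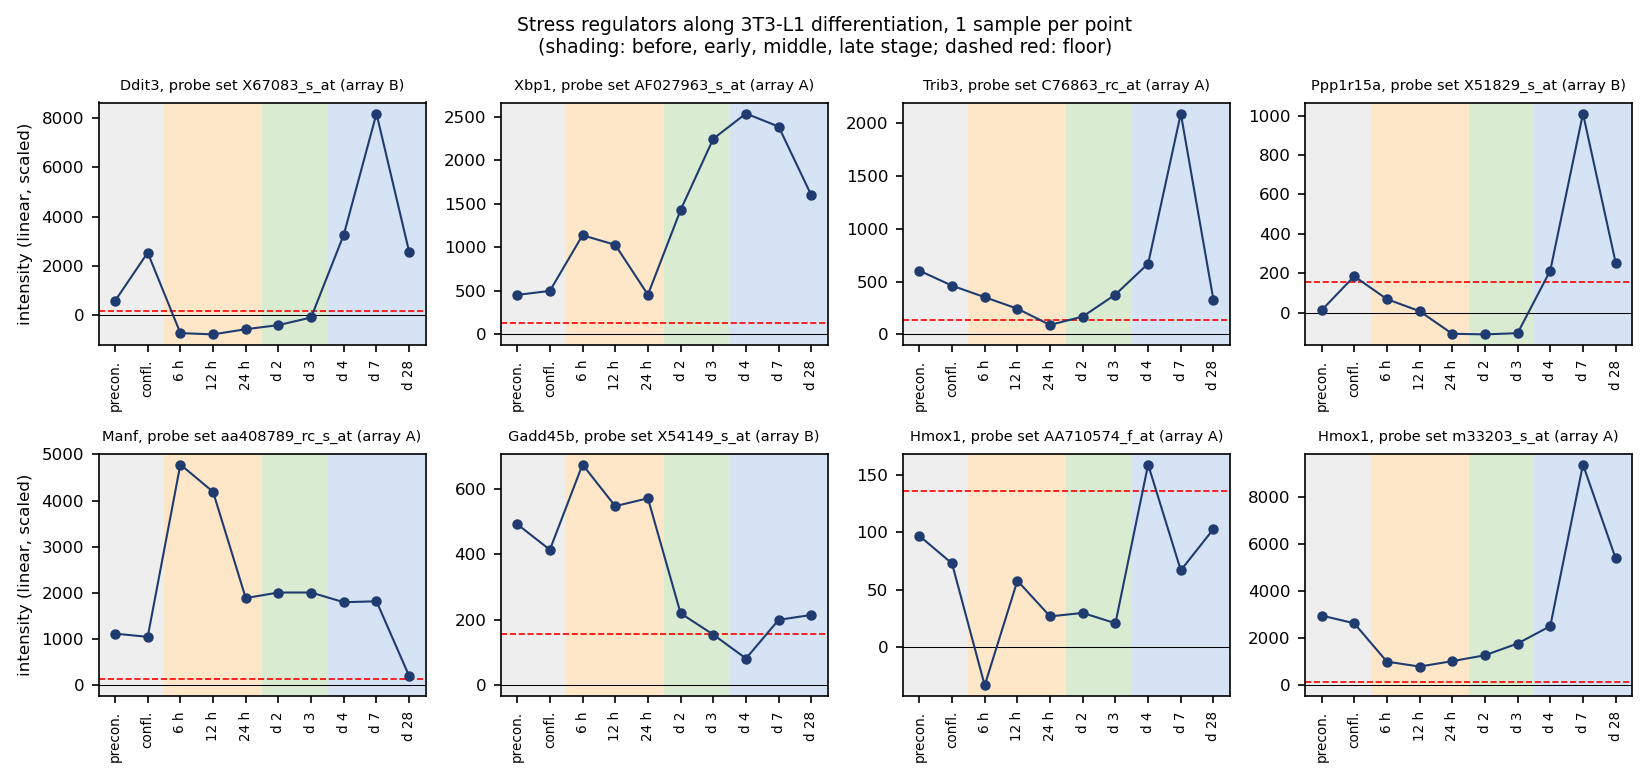
Intensity (linear, scaled by the authors, vertical axis of each panel) of the 8 probe sets at the 10 time points, 1 sample per point, with stages shaded and the floor dashed. Ddit3, Trib3, Ppp1r15a and the brighter Hmox1 probe set reach their highest values, 8190, 2090, 1010 and 9390, on day 7, while Manf and Gadd45b are highest at 6 hours.

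Xbp1 encodes a transcription factor of the secretory pathway whose messenger is spliced by the sensor Ire1. The probe set gives 1 value for the gene and does not report splicing. Its intensity on array A was 454 and 500 before induction, 1140, 1030 and 456 at 6, 12 and 24 hours, 1430 and 2250 on days 2 and 3, and 2540, 2390 and 1600 on days 4, 7 and 28. Every middle and late sample lay above every earlier sample, and at 24 hours the value was back at that of uninduced cells.

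Xbp1 rose from before induction to the late stage (log2 change 2.16 ± 0.43 SE, n = 3 against 2, adjusted p = 0.00934). Late against before called 826 probe sets (10.9%), 441 higher (5.82%) and 385 lower (5.08%), and 2 of the 7 regulators, Xbp1 higher and Gadd45b lower. The call of Xbp1 was lost without the preconfluent sample (log2 change 2.09, adjusted p = 0.0735), without the confluent sample (2.23, adjusted p = 0.0503) and with no filter (adjusted p = 0.062). Between neighbouring stages no change passed: early against before gave 0.77 ± 0.43 SE (adjusted p = 0.672), middle against early 1.14 ± 0.43 SE (adjusted p = 0.272) and late against middle 0.25 ± 0.43 SE (adjusted p = 0.873). The trend along the series, a smooth curve fitted in the order of the time points, gave an adjusted p of 0.0535 for Xbp1, and was called without 6 hours (adjusted p = 0.0225), without 24 hours (0.0103) and with a spline of 2 degrees of freedom (0.037).

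Trib3 encodes a pseudokinase induced by Atf4 and CHOP that binds the kinase Akt. Its intensity on array A was 603 and 461 before induction, 352, 243 and 89 at 6, 12 and 24 hours, 169 and 377 on days 2 and 3, and 669, 2090 and 323 on days 4, 7 and 28. The values before induction were above all 5 early and middle values, but the late stage overlapped both other groups through day 28. No stage comparison passed for Trib3: late against middle gave 3.04-fold (log2 change 1.60 ± 0.69 SE, n = 3 against 2, adjusted p = 0.388) and early against before -1.22 ± 0.69 SE (adjusted p = 0.692). Late against before gave 0.54 ± 0.69 SE (adjusted p = 0.68) and -0.18 without day 7, the opposite sign. The trend was not called (adjusted p = 0.221), but without day 28 it was (adjusted p = 0.00224).

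Ppp1r15a encodes GADD34, which brings protein phosphatase 1 to eIF2 and so restores protein synthesis after stress. It was dim, with 11 and 184 before induction, 68, 7 and -108 at 6, 12 and 24 hours, -111 and -105 on days 2 and 3, and 213, 1010 and 253 on days 4, 7 and 28 on array B. The 3 late samples were above all other samples, though day 4 lay only a little above confluent cells, and 6 of 10 values were under the floor. Late against middle gave at least 2.43-fold (log2 change 1.28 ± 0.56 SE, n = 3 against 2, adjusted p = 0.411) and late against before at least 2.24-fold (1.16 ± 0.56 SE, adjusted p = 0.245), neither of them called. The trend had an adjusted p of 0.322, and of 0.0226 without day 28.

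Hmox1 encodes heme oxygenase 1, which opens the heme ring to biliverdin, carbon monoxide and iron and is a classic target of the oxidative stress factor Nrf2 and its repressor Bach1. The intensity of its brighter probe set was 2970 and 2640 before induction, 1010, 800 and 1030 at 6, 12 and 24 hours, 1280 and 1780 on days 2 and 3, and 2520, 9390 and 5400 on days 4, 7 and 28 on array A. All 5 early and middle samples lay below all samples from before induction and all late samples, and day 4 lay just below both samples from before induction. Hmox1 changed along the series (trend adjusted p = 0.00651). The trend called 1274 probe sets (16.8%) and 2 of the 7 regulators, Hmox1 and Gadd45b. With no filter the trend of Hmox1 was not called (adjusted p = 0.0637).

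The stage comparisons of Hmox1 did not pass with all samples. Early against before gave a 2.98-fold lower level (log2 change -1.57 ± 0.47 SE, n = 3 against 2, adjusted p = 0.254) and late against middle a 3.34-fold higher level (1.74 ± 0.47 SE, adjusted p = 0.169). Without day 4, late against middle was called for Hmox1 (log2 change 2.24, adjusted p = 0.0207), as was late against before (1.35, adjusted p = 0.0475). The other Hmox1 probe set, whose suffix stands for probes common to several related genes, stayed between -33 and 159 and was not tested. It was above the floor on day 4 only and lay at 67 on day 7. The dim probe set was also under the floor before induction and on day 28, where the brighter one was far above it. It therefore cannot decide for or against the day 7 value of the brighter one, which has no second probe set as a check.

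On day 7 then, 4 of the 7 tested probe sets had their highest value of the series, those of Ddit3, Trib3, Ppp1r15a and Hmox1, as did 14.5% of all tested probe sets. Their day 7 values exceeded the next highest sample 2.50-fold for Ddit3, 3.12-fold for Trib3, 3.99-fold for Ppp1r15a and 1.74-fold for Hmox1. A day 7 value at least 1.5 times every other was seen in 112 of all 7582 tested probe sets (1.48%). The limit of 1.5 lies under all 4 of these folds, and the 4 genes were singled out by their day 7 values. The share is thus a description only. From day 4 to day 7 these 4 and none of the other 3 were 2-fold or more higher, beside 8.26% of all tested probe sets. From day 7 to day 28, Ddit3, Trib3 and Ppp1r15a were 3.19-fold, 6.47-fold and 3.99-fold lower, as was Manf by 9.05-fold, and 6.91% of all tested probe sets were 2-fold or more lower. The 4 genes stand on different arrays, Ddit3 and Ppp1r15a on array B and Trib3 and Hmox1 on array A, but day 7 was 1 sample per array type. The ratio of 3-prime to 5-prime control signal is a sign of RNA quality. For Gapdh and beta-actin on day 7 it was 1.13 and 1.29 on array A (series 0.986 to 1.61 and 1.05 to 1.72). On array B it was 0.748 and 0.955 (0.722 to 0.815 and 0.801 to 1.11). The part of RNA quality in the day 7 values was not tested.

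**Figure D2:**
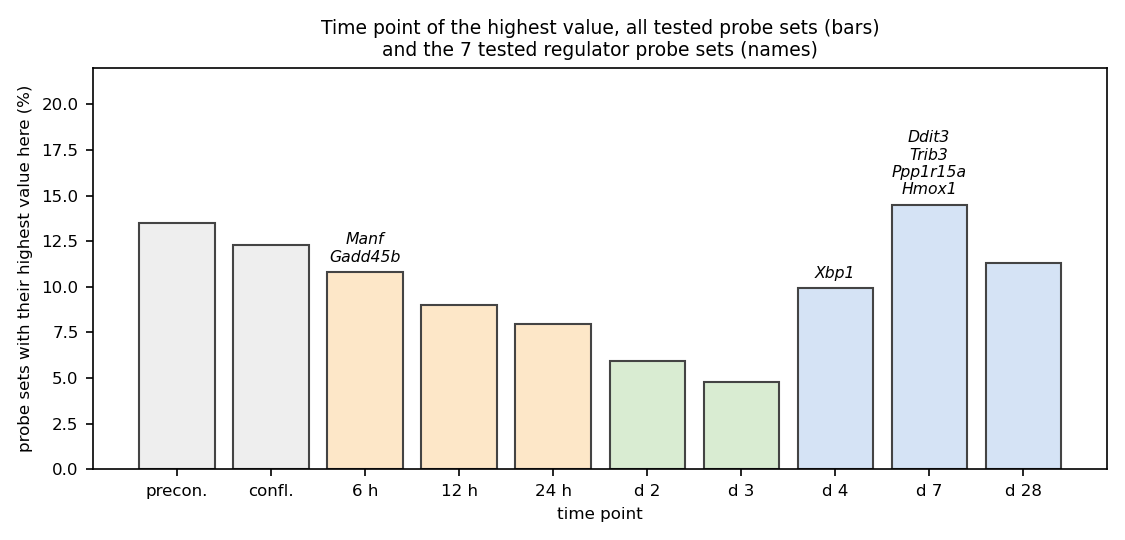
Share of all 7582 tested probe sets (bars, in percent) that have their highest value at each time point, with the names of the 7 regulators above the bar of their own highest value. Day 7 holds 14.5% of all tested probe sets and 4 of the 7 regulators, 6 hours holds 10.8% with Manf and Gadd45b, and day 4 holds 9.94% with Xbp1.

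Manf encodes a small secreted protein of the endoplasmic reticulum that helps chaperones and is released under stress. Its intensity on array A was 1120 and 1050 before induction, 4780, 4190 and 1890 at 6, 12 and 24 hours, 2010 and 2010 on days 2 and 3, and 1800, 1820 and 201 on days 4, 7 and 28. All early and middle samples lay above both samples from before induction, 6 and 12 hours were above all other samples, and day 28 was 9.05-fold below day 7. Manf was 4.55-fold higher at 6 hours than in confluent cells, where 6.81% of tested probe sets were 2-fold or more higher. Early against before was not called (3.10-fold, log2 change 1.63 ± 0.81 SE, n = 3 against 2, adjusted p = 0.597). Late against before gave -0.32 ± 0.81 SE (adjusted p = 0.855) and 0.74, the opposite sign, without day 28. The trend had an adjusted p of 0.0767, of 0.0337 without day 7 and of 0.0413 with a spline of 2 degrees of freedom.

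Gadd45b encodes a growth arrest and DNA damage protein that activates the p38 kinase pathway. Its intensity was 492 and 414 before induction, 674, 547 and 571 at 6, 12 and 24 hours, 220 and 155 on days 2 and 3, and 82, 200 and 215 on days 4, 7 and 28 on array B. All 5 values from day 2 on lay below all 5 earlier values. Gadd45b fell from the early to the middle stage at least 3.18-fold (log2 change -1.68 ± 0.22 SE, n = 2 against 3, adjusted p = 0.0124), a comparison that called 79 probe sets (1.04%), 22 of them lower (0.29%), and no other of the 7 regulators. It was also lower late than before induction (-1.26 ± 0.22 SE, adjusted p = 0.00949) and changed along the series (trend adjusted p = 0.00497).

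The middle against early call of Gadd45b was lost with a floor of 50 (adjusted p = 0.125), with no filter (0.0729), without 6 hours (0.0527) and without day 3 (0.169), with log2 changes from -1.69 to -1.44. Late against before was lost without the preconfluent sample (log2 change -1.13, adjusted p = 0.0719), and the trend with a floor of 300 (adjusted p = 0.0627) and with a spline of 2 degrees of freedom (0.0726).

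**Figure D3:**
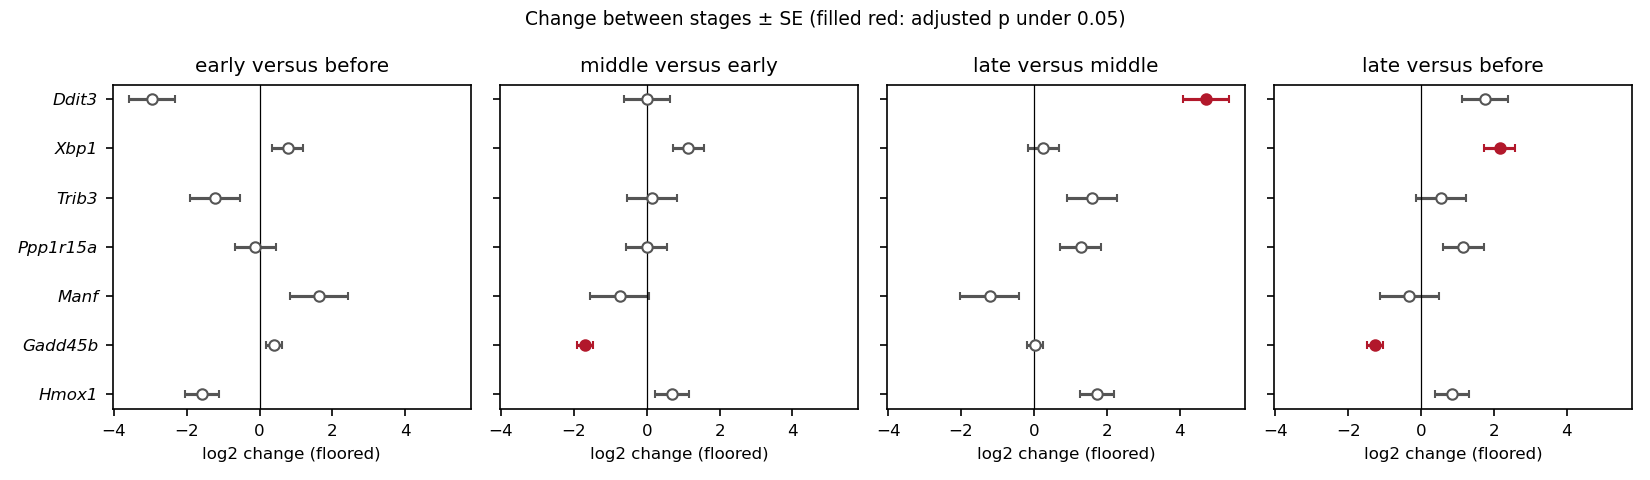
Log2 change between stages (horizontal axis, values under the floor set to it) with its SE, for the tested probe set of each of the 7 genes and 4 comparisons. Filled red points passed limma's adjusted p under 0.05: Gadd45b at -1.68 in middle against early, Ddit3 at 4.72 in late against middle, and Xbp1 at 2.16 and Gadd45b at -1.26 in late against before.

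The 7 genes thus ran in different orders. Late against middle, 6 of the 7 tested probe sets were higher and 1, Manf, lower, with a median of 1.28 on the log2 scale beside 0.00 over all tested probe sets, but 1 of the 6 was called. Among the 6, Gadd45b (0.026 ± 0.22 SE) and Xbp1 (0.25 ± 0.43 SE) changed by less than their SE. Both turned sign in fits with 1 time point left out. Early against before the median was -0.12, with 3 higher and 4 lower, beside 0.00 over all. Set against each other as log2 profiles centred over the 10 time points, the closest were Ppp1r15a and Hmox1 (root-mean-square difference 0.65), Trib3 and Ppp1r15a (0.65) and Trib3 and Hmox1 (0.70). The farthest from each other were Ddit3 and Manf (3.00).

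By the same measure the named genes of the same array type most like each regulator, over 10 time points and with a range of at least 1 on the log2 scale, were as follows. For Trib3 they were Pck2, the mitochondrial form of phosphoenolpyruvate carboxykinase (root-mean-square difference 0.49), Cyb5r1 (0.52) and Cpne6 (0.56), among 2890 probe sets. Pck2 measured 767 and 546 in uninduced cells, 165 on day 2, 1200 on day 7 and 321 on day 28. For Hmox1 they were Cyb5r1 (0.41), Gsta4, a glutathione transferase that detoxifies lipid aldehydes (0.48), and Wdr45 (0.50). Xbp1 was closest to Ss18l2 (0.35), Scd2, a fatty acid desaturase (0.38), and Ncoa4, a carrier of ferritin to lysosomes (0.38).

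Manf was closest to Lamc1, a laminin chain (0.51), Snd1 (0.52) and Hsph1, a large heat shock protein (0.59), which lay at 693 in confluent cells, 3130 at 6 hours and 323 on day 28. Gadd45b was closest to Ddr2, a collagen receptor (0.30), Prkg2 (0.32) and Gli2, a hedgehog factor (0.33), and Ppp1r15a to Clcn3 (0.33), Calm3 (0.45) and Cntn1 (0.45), among 786 probe sets of array B. None of these 786 was close to Ddit3. The nearest, Slc2a4, the insulin-responsive glucose transporter, differed by 1.35. It was below 0 in both samples from before induction, where Ddit3 lay at 575 and 2540. Hmox1, on array A, differed from Ddit3 by 1.33. The measure is not scaled to a gene's range, which for Ddit3 was 5.71 on the log2 scale.

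The other genes of these pathways were counted in lists chosen by function, each gene by its brightest tested probe set. Of the 22 tested genes of Atf4 and its targets, none was called early against before (5 at an unadjusted p under 0.05) or late against middle (1 unadjusted), and late against before 1 was higher and 1 lower. Over all tested probe sets, the unadjusted shares in the first 2 comparisons were 9.23% and 12.1%. Late against before, 5.82% of them were called higher and 5.08% lower. Slc1a5, a glutamine transporter, rose 4.75-fold, its late values of 5950, 4960 and 1860 standing against 743 and 862 (log2 change 2.25 ± 0.44 SE, n = 3 against 2, adjusted p = 0.00922). The call was lost without the preconfluent sample (adjusted p = 0.0763) and with no filter (0.0643). Bcat1, which transfers the amino group of branched-chain amino acids, fell at least 9.17-fold, its values being 3150 and 1040 before and 85, 62 and 316 late (-3.20 ± 0.52 SE, adjusted p = 0.007). It was not called without the preconfluent sample (adjusted p = 0.0552). It also fell from the early to the middle stage, at least 7.59-fold (adjusted p = 0.0427), the only 1 of the 22 called there, a call that was lost without 6 hours, 12 hours, day 2, day 3, day 4 or day 7 (adjusted p from 0.0667 to 0.339), with either other floor (0.0827 and 0.192) and with no filter (0.214). Both and Vldlr, a lipoprotein receptor, Cars, a cysteine tRNA synthetase, and Cebpg, a C/EBP partner of Atf4, changed along the series, 5 of 22 beside 16.8% of all tested probe sets. Leaving out 1 time point ended the trend call of Vldlr (day 28, adjusted p = 0.0968), of Cars (12 hours, 24 hours or day 4, from 0.0516 to 0.0654) and of Cebpg (12 hours, 24 hours, days 2, 3, 4 or 7, from 0.0548 to 0.1). A spline of 2 degrees of freedom ended those of Vldlr (0.161) and Cars (0.225), no filter those of Slc1a5 (0.083) and Cebpg (0.0879), and a floor of 50 that of Cebpg (0.0593).

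The list's median was -0.32 on the log2 scale early against before, beside 0.00 over all tested probe sets, and 0.30 late against middle. On day 7, 5 of its 22 genes had their highest value, beside 14.5% of all tested. Atf4 itself, chosen for mention after its values were seen, measured 3690 and 4280 before induction, 2010, 1930 and 3080 early, 2500 and 1910 in the middle stage and 2830, 3910 and 2230 late, and was called in no comparison (lowest adjusted p = 0.465). Its early and middle values were all below those before induction. The serine synthesis genes Psat1 and Phgdh, likewise chosen afterwards, had no call either. Psat1 was 4110 and 1090 before induction, 1870, 2360 and 1240 early, 797 and 3510 in the middle stage and 4260, 4670 and 3100 late. Phgdh was 4370 and 1770 before induction, 1560, 1160 and 834 early, 454 and 2440 in the middle stage and 3380, 3820 and 2080 late. Both were lowest on day 2, and Phgdh was highest in preconfluent cells. The kinase and eIF2 list had none of 12 genes called in any stage comparison, with 1 unadjusted early against before, 0 middle against early, 1 late against middle and 2 late against before. Over all tested probe sets the unadjusted shares in these 4 comparisons were 9.23%, 12.3%, 12.1% and 25.1%. In the trend Ppp1cc, a catalytic subunit of protein phosphatase 1, was called (adjusted p = 0.0474), but not without any 1 of 6, 12 or 24 hours or days 2, 4, 7 or 28 (from 0.0585 to 0.226), nor with either other floor, no filter or quantile normalization (from 0.0546 to 0.202). Of the others, Eif2b4, a subunit of the eIF2 exchange factor, was not called (late against before 1.56 ± 0.62 SE, adjusted p = 0.141), except without the confluent sample (2.61, adjusted p = 0.0431).

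The endoplasmic reticulum chaperones and folding enzymes had 20 tested genes, of which 1 was higher and 1 lower late against before and 5 changed along the series, beside 10.9% and 16.8% of all tested probe sets. None of the 20 was called early against before, with 4 at an unadjusted p under 0.05 beside 9.23% of all tested probe sets. The list's median there was 0.23, beside 0.00 over all tested probe sets. Dnajb9, a chaperone that Xbp1 is known to induce, rose at least 4.21-fold, with values of 37 and 8 before and 650, 633 and 456 late (log2 change 2.07 ± 0.29 SE, n = 3 against 2, adjusted p = 0.00191). A further Dnajb9 probe set stayed dim, between -66 and 202, and was not tested. Pdia5, a disulfide isomerase, fell at least 4.15-fold (-2.05 ± 0.36 SE, adjusted p = 0.00592), a call lost without the preconfluent sample (adjusted p = 0.0595) and with a floor of 300 (0.0805). Creld2, a secreted folding factor, lay at 378 and 479 before induction, 856, 823 and 586 early and 193, 252 and 363 late (trend adjusted p = 0.0216), and the trends of Uggt1, which marks misfolded glycoproteins, and P4hb, a disulfide isomerase, were called too. These calls did not hold throughout. That of Uggt1 was lost with a floor of 300, above all its values (adjusted p = 1), and with a spline of 2 degrees of freedom (0.0501). That of Creld2 was lost without 12 hours, day 4 or day 7 (from 0.0505 to 0.0652), with no filter (0.0709) and with that spline (0.158). That of P4hb was lost without the preconfluent sample, 6, 12 or 24 hours or day 3 (from 0.0508 to 0.298), and with either other floor, no filter or that spline (from 0.0543 to 0.124). The trends of Dnajb9 and Pdia5 were lost with a floor of 300 (0.0814 and 0.0785). Hspa5, the main chaperone BiP, chosen for mention afterwards, stayed between 5020 and 9410, with its highest value on day 7, and was not called (lowest adjusted p = 0.171). Its probe set has the suffix of probes common to several related genes, so the values may not be of Hspa5 alone.

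Of 14 tested genes for translocation and degradation none was called in a stage comparison, with 2 unadjusted early against before, 0 middle against early, 2 late against middle and 1 late against before, beside 9.23%, 12.3%, 12.1% and 25.1% of all tested probe sets. Ssr4 of the translocon was called in the trend (adjusted p = 0.0469) by 1 of its 2 probe sets, the other having an adjusted p of 0.188, and leaving out any 1 time point but day 4 ended that call (from 0.0509 to 0.166), as did either other floor, no filter and a spline of 2 degrees of freedom (from 0.0552 to 0.137). Srp14, of the signal recognition particle, gave -0.96 ± 0.44 SE late against before (adjusted p = 0.197). Both Ssr4 probe sets and that of Srp14 have the suffix of probes common to several related genes. Among the 9 sensors and their partners, Bcap31, an export receptor of the endoplasmic reticulum, rose 1.84-fold late against before (adjusted p = 0.013), except without the confluent sample (0.0579). Tmbim6, an inhibitor of cell death there, was not called but lay at 13800 on day 7 and at most 8670 elsewhere, and 4 of the 9 genes had their highest value on day 7, beside 14.5% of all tested probe sets.

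**Figure D4:**
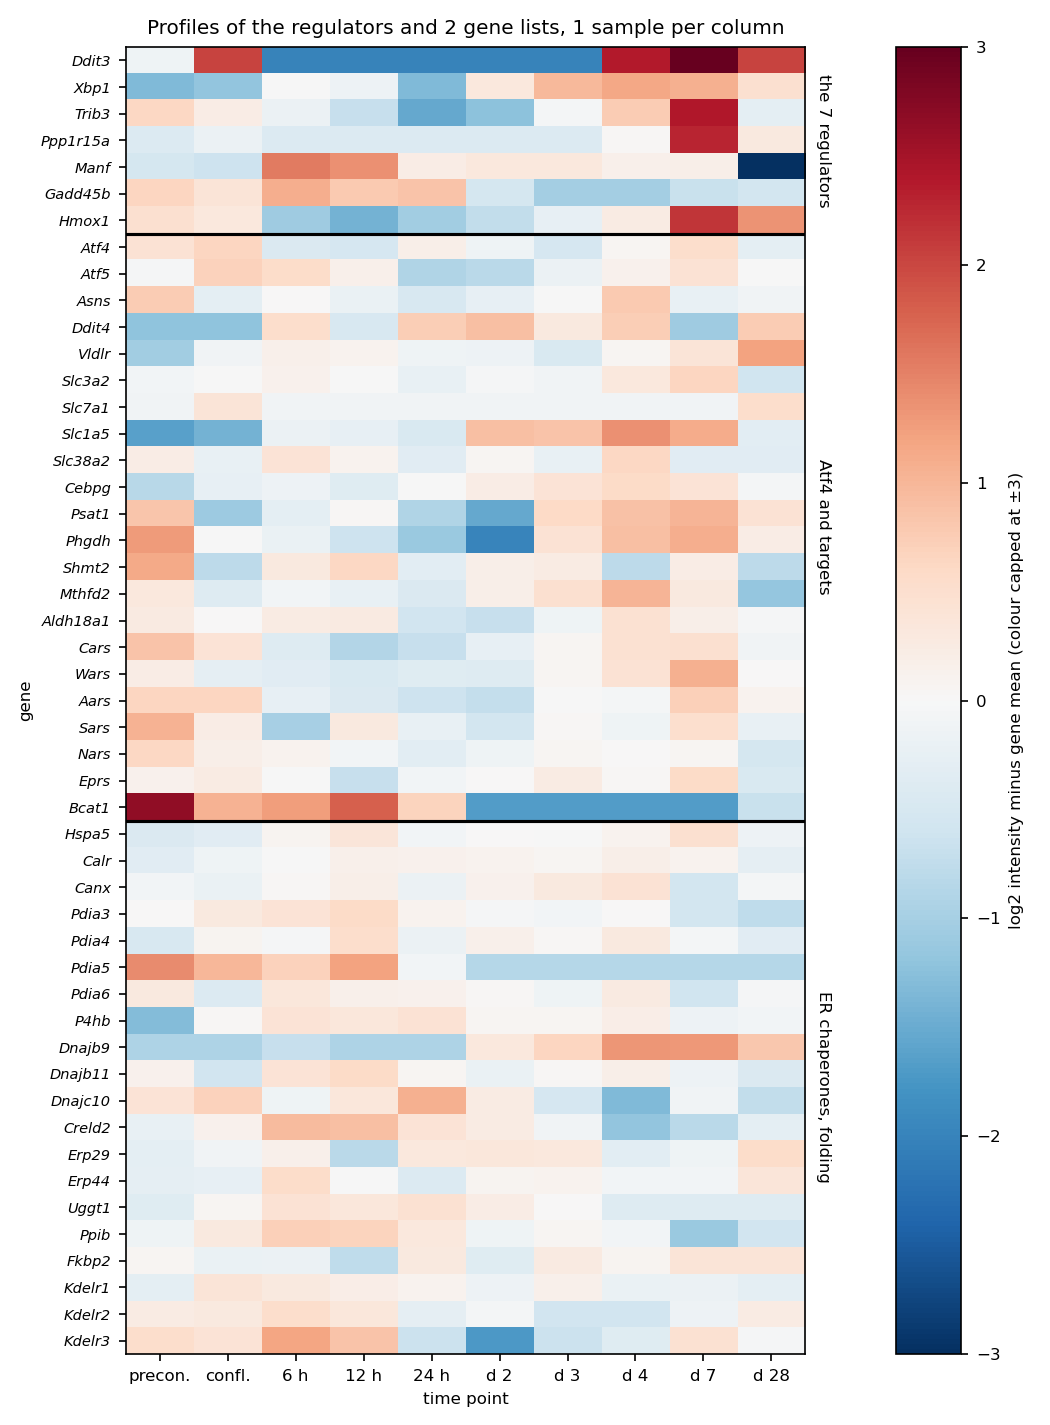
Log2 intensity minus each gene's mean (colour, capped at 3 either way, values under the floor set to it) for the 7 regulators, 22 tested genes of Atf4 and its targets and 20 chaperones and folding enzymes, 1 sample per column. The swing of Ddit3 from under the floor at 6 hours to 8190 on day 7 is seen beside paler chaperone rows, of which Dnajb9 is called higher and Pdia5 lower late against before.

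In the Nrf2 and heme list, 2 of 18 tested genes were higher and 1 lower late against before, and 4 changed along the series. Of all tested probe sets 5.82% were called higher, 5.08% lower and 16.8% in the trend. Alas1, the entry enzyme of heme synthesis, rose 4.62-fold, its late values of 4150, 3800 and 4760 standing against 905 and 920 before induction (log2 change 2.21 ± 0.24 SE, n = 3 against 2, adjusted p = 0.00148), and had risen 2.89-fold from the early to the middle stage (adjusted p = 0.0269). That earlier call was lost without the preconfluent sample, the confluent sample, 6 hours, 12 hours or day 3 (adjusted p from 0.0521 to 0.173), with a floor of 300 (0.0584) and with no filter (0.105). Nfe2l1, a relative of Nrf2, rose 1.59-fold (adjusted p = 0.0431) and Txnrd1, a thioredoxin reductase and Nrf2 target, fell at least 3.22-fold (adjusted p = 0.0127). The call of Nfe2l1 was lost without any 1 time point but the confluent sample (adjusted p from 0.056 to 0.19), with a floor of 50 (0.0816) and with no filter (0.0563). That of Txnrd1 was lost without the preconfluent sample (0.118), with a floor of 300 (0.113) and with no filter (0.0526). Bach1, the repressor of Hmox1, lay at 363 and 477 before induction, 617, 351 and 98 early, 127 and 92 in the middle stage and 0, 142 and -257 late (trend adjusted p = 0.0169, and 0.0616 without the confluent sample, 0.274 with a floor of 300 and 0.0994 with no filter). A further Bach1 probe set gave a trend adjusted p of 0.573.

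In the Gadd45, p53 and stress kinase list, Ccng1, a p53 target, was the only 1 of 14 tested genes called late against before (1.85-fold lower, adjusted p = 0.0153), except without the preconfluent sample (0.0857), and it and Btg1, a brake on cell division, were called in the trend. Over all tested probe sets, 10.9% were called late against before and 16.8% in the trend. Both Btg1 probe sets have the suffix of probes common to several related genes. The call of Btg1 was lost without the preconfluent sample, 24 hours or day 2 (adjusted p from 0.0518 to 0.523), with a floor of 300 (0.058), with no filter (0.102) and with a spline of 2 degrees of freedom (0.0956). Of the partners of these proteins, Cebpa, which pairs with CHOP, rose at least 8.02-fold from the early to the middle stage (adjusted p = 0.00035), while Ddit3 was under the floor at all 5 time points of these stages. Pparg, the nuclear receptor of adipocytes, rose at least 6.41-fold there (adjusted p = 0.00761, and 0.137 without day 3, 0.0508 with a floor of 50 and 0.078 with no filter), and Akt1, the kinase bound by Trib3, fell 1.85-fold late against before (adjusted p = 0.0108). Cebpb and Cebpd, the C/EBP factors of the early phase, were called in the trend (adjusted p = 0.036 and 0.0377), calls that were lost without most single time points (from 0.0514 to 0.141), with a floor of 300 and with no filter (from 0.0832 to 0.151). Cebpb was at 9960, 9240 and 8450 at 6, 12 and 24 hours, when Ddit3 lay below 0.

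Marker levels of other cell types are given beside the day 7 values. The summed level of 9 macrophage markers was 3481 on day 7, its lowest, against up to 6963 at 6 hours, and Csf1r, C1qa and Adgre1 were never above the floor. The 6 endothelial markers summed to between 1288 and 1685 in all samples, with Cdh5, Pecam1 and Tie1 never above the floor, and the 8 skeletal muscle markers to between 3172 and 4820, highest on day 7, with Tnnt3 and Acta1 never above it; the part of the muscle markers in the day 7 values was not tested. The 8 fibroblast markers summed to 23061 on day 7, their lowest, to 46186 on day 28 and to between 53922 and 71705 before induction. The part of the fibroblast markers in the day 28 values was not tested. The control ratios differed between stages on both array types. On array A, which holds Xbp1, Trib3, Manf and Hmox1, the Gapdh ratio was 0.986 and 1.33 before induction, 1.43 to 1.61 early, 1.27 and 1.60 in the middle stage and 0.992 to 1.14 late. The beta-actin ratio of array A overlapped between stages, at 1.39 to 1.45 early and 1.29 to 1.41 late. On array B, which holds Ddit3, Ppp1r15a and Gadd45b, the beta-actin ratio was 0.824 and 0.872 before induction, 0.801 to 1.11 early, 1.08 and 1.06 in the middle stage and 0.955 to 1.05 late. The part of these ratios in the regulators' values, the called ones included, was not tested.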

How the data were processed

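Total RNA (10 µg per labelling) from 10 time points was put on 2 Affymetrix array types. Each deposited value is a probe set's linear intensity, computed by the authors following the maker's technical manual, per the labels. The software and version behind it are not given in the sources used here. Trimmed means (2% off each end) of 500.9 to 501.1 on all arrays show a common scaling, which was kept. Of 13179 probe sets, 110 controls were left out. Only probe sets with 1 symbol in the platform annotation were named. The floor was minus the 10th percentile of an array type's values. A probe set was tested when above 182 (array A) or 156 (array B) in at least 2 samples. Stage means, and separately a natural spline (cubic, 3 degrees of freedom) over the time points in order, were fitted per array type (limma 3.58.1, R 4.3.3), the stage fit on 6 residual degrees of freedom, with Benjamini-Hochberg adjustment over both together. The fit was run on simulated data modelled on array A, with no floor applied and with time points drawn independently. That simulation does not cover array B or values at the floor. Named were all members, list genes called in any comparison (up to 6 a list, or the 2 largest late changes where fewer than 2 were called) and the 3 most alike genes. The 7 genes, lists and tests were chosen with earlier results of these data known. The number of arrays limits the precision. Alternatives were other floors, no filter, quantile normalization, another spline and leaving out each time point.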

Additional observations from a re-analysis of the deposited data

How the results depend on the processing

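The calls depended on the filter and the floor more than on quantile normalization, under which no count of calls moved by over 1.5 times. Early against before called 27 probe sets, 50 with a floor of 300 and 15 with no filter. None of the 7 regulators was called in it, and 1, Ddit3, with a floor of 50. Middle against early called 79, 50 with a floor of 300 and 15 with no filter, and its 1 regulator became 0 with a floor of 50 and with no filter. Late against middle called 22, 11 with a floor of 300 and 12 with no filter, and its 1 regulator became 0 in both. Late against before called 826 and 412 with no filter, with 2 regulators and then 1. The trend called 1274 and 632 with no filter, and its 2 regulators became 1 with no filter and 1 with a floor of 300. Leaving out 1 time point at a time gave 0 to 46 probe sets and 0 regulators for early against before, 15 to 136 and 0 to 1 for middle against early, 2 to 116 and 0 to 2 for late against middle, 317 to 766 and 0 to 3 for late against before and 915 to 1255 and 2 to 4 for the trend. The extremes were 0 without 12 hours and 46 without the confluent sample, 15 without day 3 and 136 without 24 hours, 2 without day 2 or day 7 and 116 without day 4, and 317 without the preconfluent sample. Signs turned for uncalled values only: Xbp1 late against middle to -0.077 without day 2 (range with 1 time point left out up to 0.58), Trib3 middle against early to -0.21 without 24 hours and -0.42 without day 3 (up to 0.73), Trib3 late against before to -0.18 without day 7 (up to 1.17), Manf late against before to 0.74 without day 28 (down to -0.85), and Gadd45b late against middle to -0.28 with a floor of 50 and to -0.22, -0.017 and -0.069 without day 3, 7 or 28 (up to 0.27). Of 497 single values of the regulators under the alternatives, 458 kept their direction and side of the threshold, 19 lost a call, 11 gained one and 9 turned sign. For the list genes 483 of 626 kept both, 142 lost a call and 1 gained one. The causes were not tested. With no filter there were more probe sets to adjust over, and limma was also refitted with the dim probe sets included. With 1 time point left out there were fewer samples. No paired analysis was possible because no time point had a replicate.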
